A study of Homo sapiens with 6 samples.

Results

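Histone genes were identified in the deposited table by name, as rows whose symbol starts with H1-, H2A, H2B, H3-, H3C, H4- or H4C or with an older HIST prefix. The rule found 68 of 16197 genes. Of these, 56 were replication-dependent genes, named for the histone clusters, and 12 were variant or replacement genes such as H2AX, H2AZ1 and H3-3A. The cells were Panc1, a human cell line grown from a ductal adenocarcinoma of the pancreas. RNA was sequenced from 3 libraries of cells given BRQ and 3 libraries of cells given the solvent DMSO. By its title the series concerns DHODH inhibition, DHODH being the enzyme of mitochondria that makes orotate for pyrimidine synthesis, and BRQ is taken to mean brequinar, which blocks it. The sources used here give neither dose nor length of exposure. Nothing in the labels ties the 3 libraries of a group to separate cultures, and the p-values therefore reflect the spread between libraries alone, which may be technical.

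Histones package DNA into nucleosomes, each built on an octamer of H2A, H2B, H3 and H4 and closed by a linker histone H1. Replication-dependent genes lie in clusters, lack introns and are made mainly in S phase, when new DNA needs new nucleosomes. Their messages usually end in a short stem-loop, bound by the protein SLBP, in place of a poly(A) tail. Variant and replacement genes give polyadenylated messages through the cell cycle, and their proteins mark particular places, such as promoters (H2A.Z), transcribed regions (the H3 replacement variant) or DNA breaks (phosphorylated H2A.X).

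Levels are given as FPKM, the fragments of a gene scaled to the length of the gene and to the fragments of the library. The steps between the FPKM values gave back whole fragments. Of 49 histone genes whose RefSeq span is at most 800 bases, 48 came out at whole fragments in every library, within 0.02 of a fragment, once multiplied by that span. The totals behind the values were then 33951989, 34370627 and 34462019 fragments in BRQ and 32597872, 31993869 and 32916299 in DMSO. Epithelial markers matched the label, with all 6 measured genes at 1 FPKM or more, among them KRT8, KRT18 and KRT19. Of 6 fibroblast markers 1 reached 1 FPKM (LUM, which rose; their summed level was 77.7 to 83.3 FPKM in BRQ and 52.1 to 55.3 FPKM in DMSO), as did 1 of 6 leukocyte markers. Haemoglobin transcripts were raised in BRQ libraries 1 and 2, and the red cell markers summed to between 1.85 and 88.8 FPKM in BRQ and between 0.592 and 2.11 FPKM in DMSO. Their part in the histone values was not tested, and counts of histone and processing genes are also given without these 2 libraries.

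Relative to the library total, RNA from most of the tested variant genes was higher in cells given BRQ, most of all from H2AJ. The clustered genes gave a mixed response. The test was limma on log2(FPKM + 1), run on each gene that averaged 1 FPKM or more. Of 9 variant genes tested, 6 rose, 1 fell and 2 did not pass an adjusted p of 0.05. Under median-of-ratios, TPM or trimmed-mean scaling, 5 rose and 2 fell. Of 23 replication-dependent genes tested, 8 rose, 3 fell and 12 did not pass. Over all 10689 genes tested, 62.1% passed, 36.9% as higher and 25.2% as lower, so the share of histone genes that passed (56.3% of 32) was near that of the whole table. The median log2 fold change was 0.35 in the variant genes and 0.25 in the replication-dependent genes, against 0.06 over all genes tested. Both groups were free of overlap in 8 of 9 variant genes and 10 of 23 replication-dependent genes, against 67.2% of all genes tested. With BRQ libraries 1 and 2 left out, the single BRQ library was assumed to vary like the DMSO libraries; 5 variant genes rose and 1 fell, and 7 replication-dependent genes rose and 4 fell, while 48.7% of all genes passed. The clustered genes are short, and when each library's trend with genomic span was removed, 5 of them rose and 6 fell, with a median of 0.01. With the same trend removed, 5 variant genes rose and 2 fell, with a median of 0.17. In bulk RNA, a shift in how many cells carry a message and a shift in its amount per cell cannot be told apart.

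**Figure D1:**
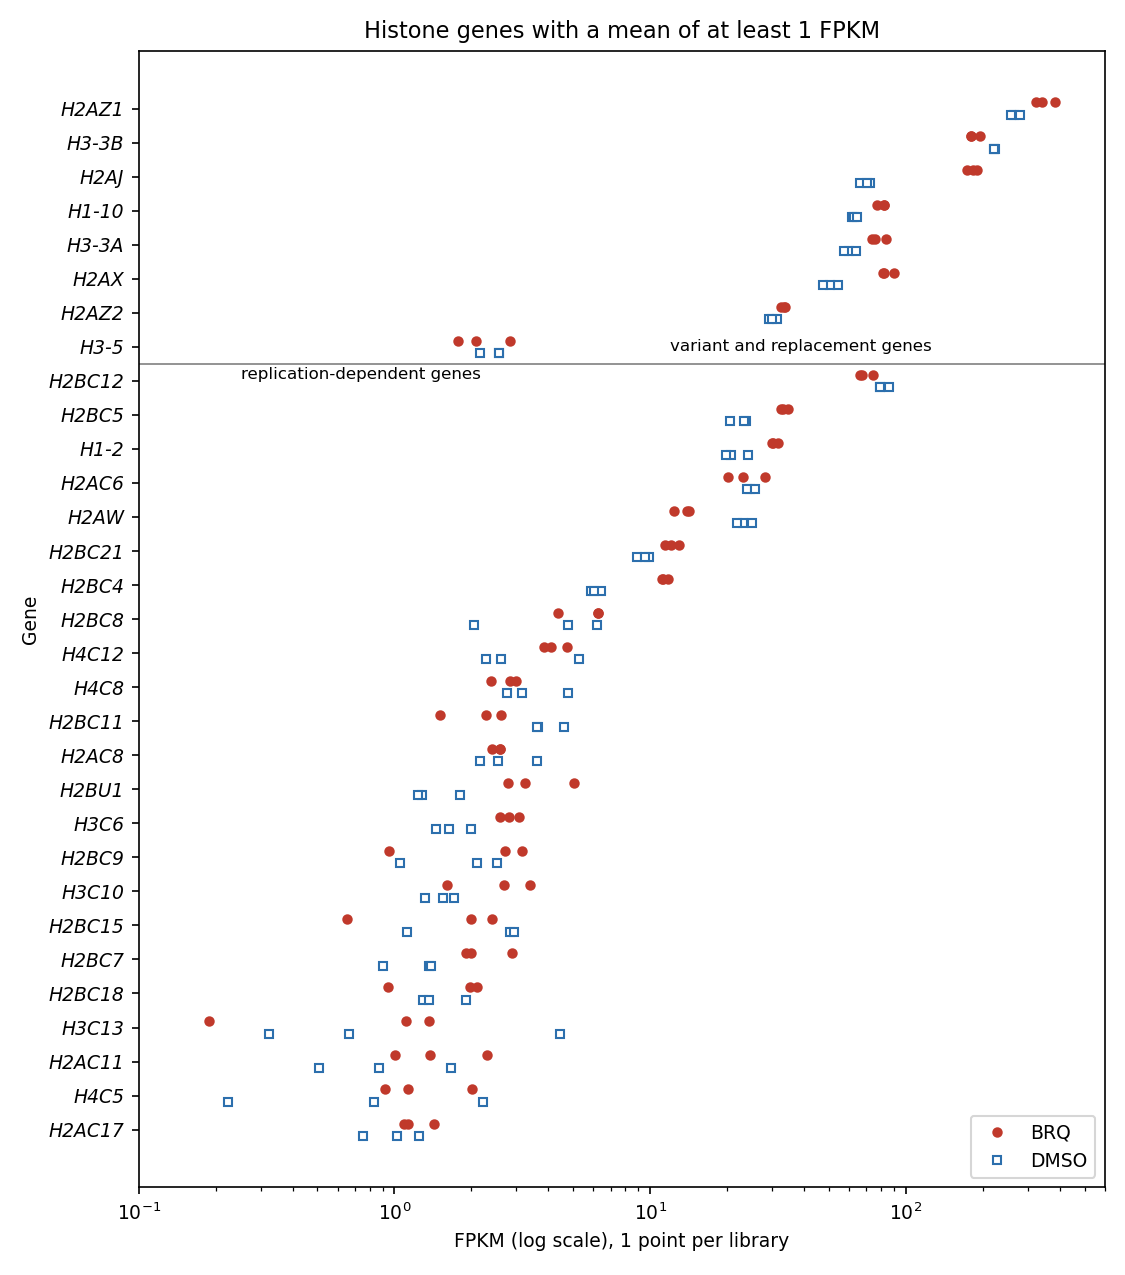
FPKM of tested histone genes on a log axis, with filled circles for the 3 BRQ libraries above open squares for the 3 DMSO libraries of each gene. H2AJ and H2AX sit clearly higher in BRQ, while most replication-dependent genes average below 5 FPKM and many overlap between groups.

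**Figure D2:**
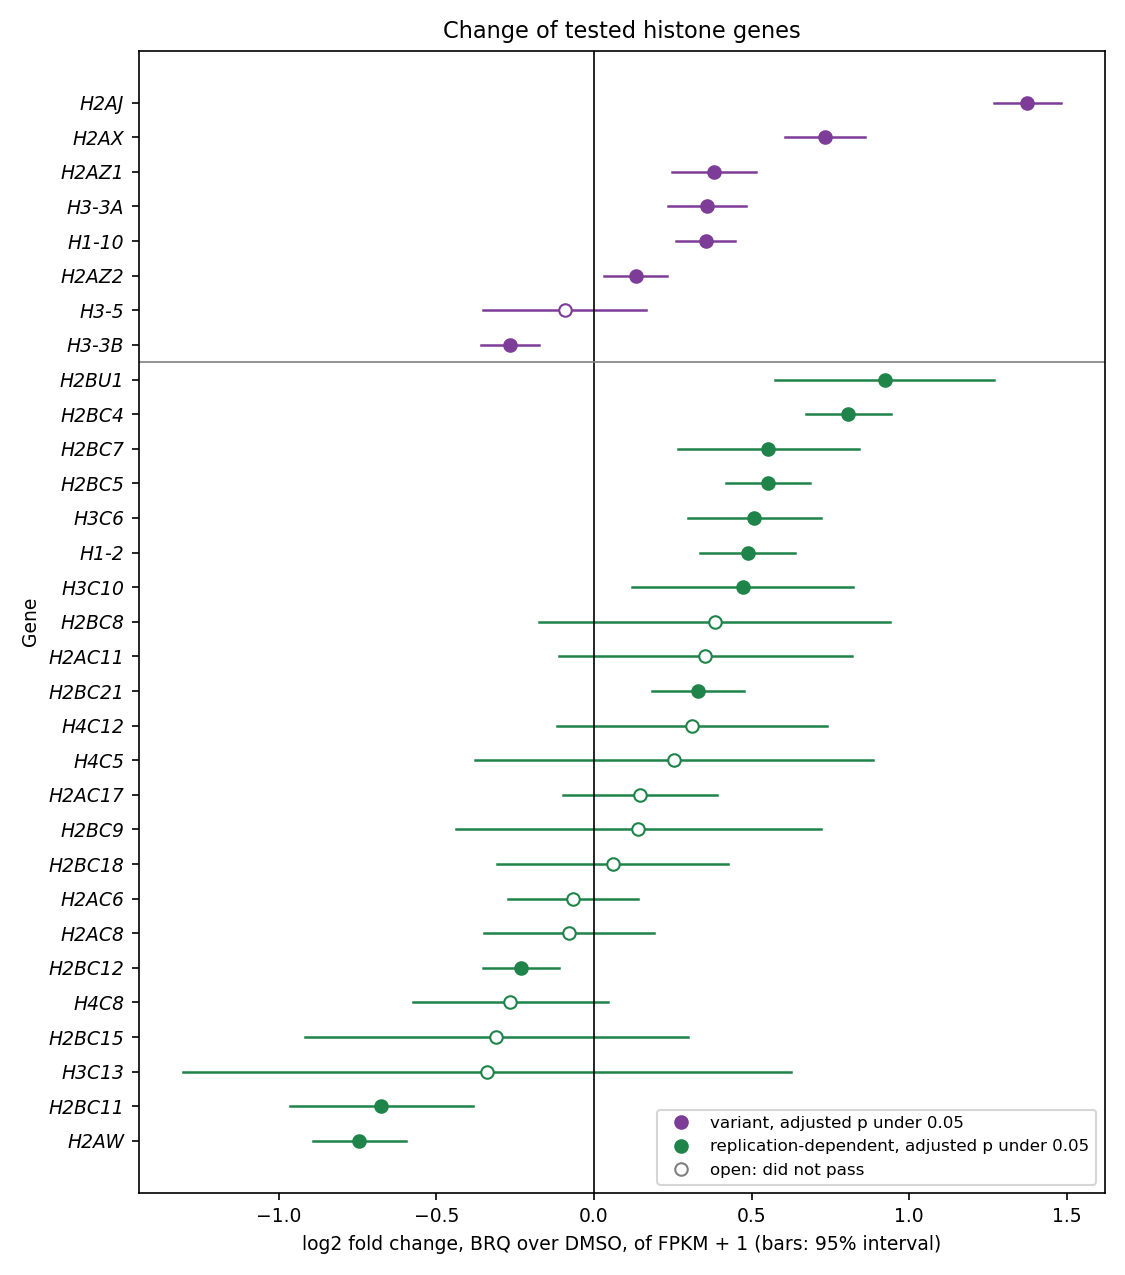
Log2 fold change, BRQ over DMSO, of FPKM + 1 for tested histone genes, with 95% intervals; filled points passed an adjusted p of 0.05. H2AJ has the highest value at 1.37, and H2AW the lowest at -0.74.

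H2AJ gave the largest change of the tested histone genes, except without BRQ libraries 1 and 2, where H2BU1 was at 1.31 and H2AJ at 1.30. It encodes H2A.J, a variant found in mammals that has been linked to senescence with persistent DNA damage in human fibroblasts. It lies on chromosome 12 from 14774405 to 14778002 (RefSeq, GRCh38.p14), apart from the large clusters. H2AJ stood at 191, 184 and 174 FPKM in BRQ, against 72.4, 66.4 and 70.8 FPKM in DMSO. The groups were far apart, and the values rested on 4012, 3912 and 3716 fragments in BRQ and 1463, 1317 and 1444 in DMSO. Its log2 fold change was 1.37 ± 0.05 (SE), with a 95% interval of 1.27 to 1.48 and a limma adjusted p of 1.89e-08, and it stayed between 1.23 and 1.41 in all 17 alternative settings. Its share of the summed FPKM of the H2A family was 26.3 ± 0.506% in BRQ and 14.8 ± 0.854% in DMSO (SD, n = 3 each). The H2AJ promoter is shown because of this change. It is the window from 250 bases before to 50 after the start, from RefSeq (GRCh38.p14, chr12:14774155-14774454, plus strand), with CCAAT boxes on either strand in capitals.
H2AJ promoter: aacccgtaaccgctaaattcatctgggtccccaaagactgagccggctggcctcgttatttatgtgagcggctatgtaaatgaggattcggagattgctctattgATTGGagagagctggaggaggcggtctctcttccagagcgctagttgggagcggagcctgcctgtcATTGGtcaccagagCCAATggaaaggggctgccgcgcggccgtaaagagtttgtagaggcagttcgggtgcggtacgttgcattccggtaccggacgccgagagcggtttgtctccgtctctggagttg
The window held 3 CCAAT boxes and no TATAAA.

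H2AX, the variant that is phosphorylated around DNA double-strand breaks, also rose. Its values were 90.2, 82.4 and 81.8 FPKM in BRQ, against 54.2, 50.5 and 47.3 FPKM in DMSO, with no overlap. The log2 fold change was 0.73 ± 0.06 (limma adjusted p = 1.78e-06). H2AX differs from the other variants in that a message with a stem-loop and a longer one beyond it are both known. Both of its coding transcripts in GENCODE 29 held the stem-loop, and the one shown further on continued for 821 bases after it. H2AX spans 119093874 to 119095465 on chromosome 11, where DPAGT1 overlaps it. The strand setting of the counting was not given in the sources used here, so fragments from the overlap may belong to either gene.

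The H2A.Z genes rose by less. H2A.Z is placed at promoters and regulatory regions by dedicated remodelling complexes, and it has a gene pair, H2AZ1 and H2AZ2. H2AZ1, the most abundant histone gene here, was at 382, 341 and 322 FPKM in BRQ, against 264, 279 and 257 FPKM in DMSO (log2 fold change 0.38 ± 0.06, limma adjusted p = 2.47e-04). H2AZ2 was at 32.6, 33.7 and 33.3 FPKM in BRQ, against 29.2, 31.3 and 30.1 FPKM in DMSO. Its groups were apart by little, its log2 fold change was 0.13 ± 0.05 (limma adjusted p = 0.0262), and the call was lost in 9 of 17 alternatives (adjusted p between 0.0123 and 0.299). It was lost without BRQ library 2 (adjusted p = 0.0757) or 3 (0.0651) and without DMSO library 1 (0.0995) or 3 (0.0687). Over the whole H2A family the summed level was 694 ± 43.9 FPKM in BRQ and 473 ± 11.7 FPKM in DMSO. H2AZ1 made up 50.1 ± 1.25% of it in BRQ and 56.4 ± 1.48% in DMSO.

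The genes of the H3 replacement variant moved in opposite directions. H3-3A and H3-3B encode the same protein, which is placed in chromatin outside replication. H3-3A was at 83.5, 74.02 and 75.7 FPKM in BRQ, against 60.2, 63.7 and 57.4 FPKM in DMSO (log2 fold change 0.36 ± 0.06, limma adjusted p = 2.31e-04). H3-3B was at 194, 179 and 179.9 FPKM in BRQ, against 221, 224 and 221 FPKM in DMSO (log2 fold change -0.27 ± 0.04, limma adjusted p = 2.37e-04). Neither gene overlapped between groups, and both calls held in all 17 alternatives. H3-3A held 29.6 ± 0.425% of the summed level of the pair in BRQ and 21.4 ± 0.766% in DMSO. The sum of the pair was 262 ± 13.4 FPKM in BRQ and 282 ± 4.66 FPKM in DMSO. H3-5, a gene derived from H3-3B and known from human testis, was at 2.09, 1.78 and 2.84 FPKM in BRQ and 2.56, 2.55 and 2.15 FPKM in DMSO, and its difference did not pass (adjusted p = 0.507).

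Among linker histones outside the clusters, H1-10 rose. H1-10, which gives a polyadenylated message, was at 82.3, 77.2 and 82.4 FPKM in BRQ, against 61.6, 62.7 and 64.2 FPKM in DMSO (log2 fold change 0.35 ± 0.04, limma adjusted p = 3.70e-05). The groups did not overlap, and the call held in all 17 alternatives.

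**Figure D3:**
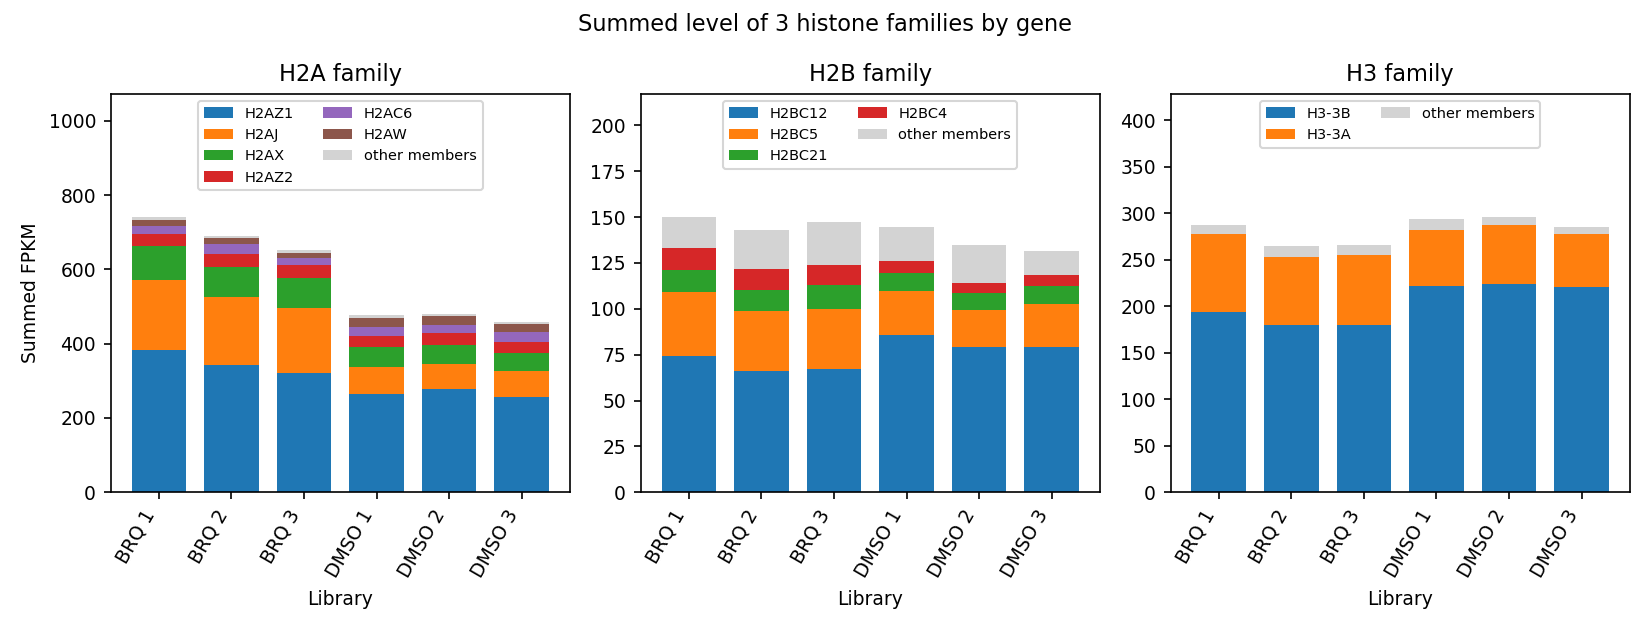
Stacked FPKM of the H2A, H2B and H3 families in each of the 3 BRQ and 3 DMSO libraries, by gene, with the remaining members in grey. H2AJ and H2AZ1 carry the higher H2A total in BRQ, and H3-3A and H3-3B shift against each other.

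The replication-dependent genes were low as a class. Their summed level was 241 ± 3.46 FPKM in BRQ and 230.3 ± 12.8 FPKM in DMSO, with overlap. The variant genes summed to 1222 ± 55.9 FPKM in BRQ and 1007 ± 14.4 FPKM in DMSO. Fragments weight long messages more. In fragments the replication-dependent genes gave 8009, 7894 and 7926 in BRQ, against 7039, 6257 and 6493 in DMSO, and did not overlap. These sums are not scaled to the library totals, which were all higher in BRQ. For some genes, H2BC12, H2BC5 and H2BC4 among them, the true fragments may be a multiple of those summed. The replication-dependent genes made up 16.5 ± 0.504% of all histone FPKM in BRQ and 18.6 ± 0.867% in DMSO. Of the 56 genes, 33 stayed under a mean of 1 FPKM and were not tested, as did 3 of the 12 variants. Among these 33, the sum over the 6 libraries ran from 1 to 175 fragments, 18 had fewer than 10 fragments, and 28 were at 0 in at least 1 library. Together they gave 163, 175 and 127 fragments in BRQ and 135, 124 and 110 fragments in DMSO, which overlap. Of the 36 untested histone genes, 34 overlapped between groups, but with so few fragments overlap is likely whatever the change. The share over all genes under the filter was not worked out, so no result is read from this count. H2AC20, a clustered H2A gene, had 5, 2 and 0 fragments in BRQ, against 13, 20 and 11 fragments in DMSO, which do not overlap. H2AC14, another H2A gene, had 1, 4 and 1 fragments in BRQ and 0 in each DMSO library. With no filter, 7 replication-dependent genes rose and 4 fell. Selection of poly(A) RNA was not given in the sources used here, and its part in the low level and in these shares was not tested. On the border of the filter were H2AC17, inside at a mean of 1.11 FPKM, and H3C4, outside at 0.935 FPKM.

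Where the replication-dependent genes were measurable, a longer message was usually annotated. In GENCODE 29, 17 of the 23 tested genes had a coding transcript that ran on for over 100 bases past the stem-loop or had a 3′ end of that length without one, against 5 of the 33 that were not tested. H2BC12, the most abundant of the class, and H1-2 are exceptions with none annotated there. Their GENCODE records end at the stop codon, so this absence draws on the annotation alone. In RefSeq the span of H2BC12 is 8566 bases. The stem-loop itself, with 6 paired bases on each side, was found after the stop codon in 28 of the 56 genes. Many GENCODE records of the others end at the stop codon, so its absence there draws on the annotation alone. The stem-loops of H2AX and of 6 clustered genes that changed, with H2AC6 as the partner of H2BC4, are shown with 5 bases on either side, in DNA letters from GENCODE 29 transcripts, with the stem-loop in capitals.
H2AW: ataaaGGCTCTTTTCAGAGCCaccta
H2BU1: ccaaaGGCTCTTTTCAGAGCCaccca
H2BC4: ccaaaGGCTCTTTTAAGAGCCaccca
H2BC5: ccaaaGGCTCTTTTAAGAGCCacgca
H2BC7: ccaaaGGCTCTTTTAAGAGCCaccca
H3C6: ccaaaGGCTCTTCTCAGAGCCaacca
H2AC6: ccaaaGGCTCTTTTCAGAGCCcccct
H2AX: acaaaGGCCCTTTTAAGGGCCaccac
H2AW, H2BU1 and H2AC6 share the same 16 bases, which H2BC21, H3C10 and H2BC8 also carry. H2BC4, H2BC5 and H2BC7 share another form.

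**Figure D4:**
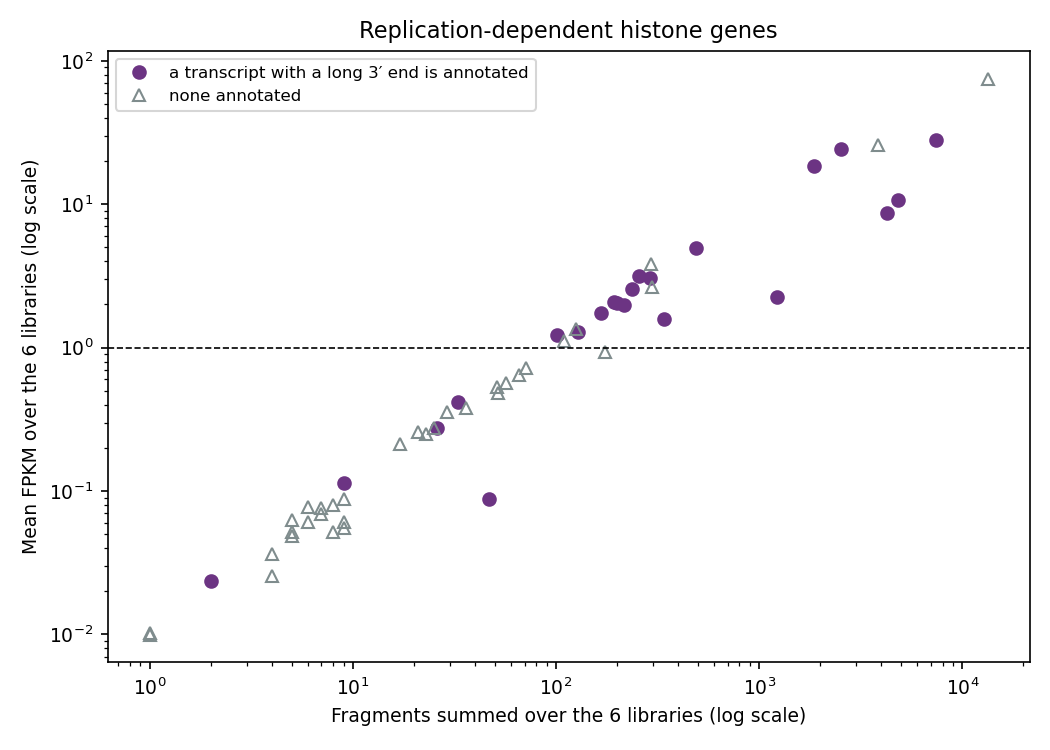
Mean FPKM against fragments summed over the 6 libraries for the 56 replication-dependent genes, both on log axes; filled circles mark genes with an annotated transcript that has a long 3′ end, open triangles those without. The dashed line is the filter at 1 FPKM, above which 17 of 23 genes are filled circles.

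Of the 11 tested replication-dependent genes for H2B, a core histone, 5 rose, 2 fell and 4 did not pass. The share that passed (63.6%) was near the 62.1% of all genes tested. H2B genes made up 11 of the 23 tested, 5 of the 8 that rose and 2 of the 3 that fell. H2BC4 was at 11.8, 11.3 and 11.1 FPKM in BRQ, against 6.40, 5.85 and 6.01 FPKM in DMSO, with a log2 fold change of 0.81 ± 0.06 (limma adjusted p = 1.39e-06). H2BC5 was at 34.7, 33.00 and 32.6 FPKM in BRQ, against 23.8, 20.5 and 23.4 FPKM in DMSO (log2 fold change 0.55 ± 0.06, limma adjusted p = 1.88e-05). Both have a spliced transcript in GENCODE 29, and neither overlapped between groups. Other annotated genes overlap the span of H2BC5, as they do those of H1-10 and H3-3A. H2BC21 was at 12.1, 11.4 and 12.9 FPKM in BRQ, against 9.90, 8.85 and 9.58 FPKM in DMSO (log2 fold change 0.33 ± 0.07, limma adjusted p = 0.00122). H2BC7 had 32, 47 and 31 fragments in BRQ, against 21, 21 and 14 fragments in DMSO (log2 fold change 0.55 ± 0.13, limma adjusted p = 0.00349). H2BC21 did not pass with the span trend removed (log2 fold change 0.17, adjusted p = 0.0598, the highest of its 17 alternatives, with 9.44e-04 the lowest), and H2BC7 was lost in 3 of 16 alternatives (adjusted p from 0.00119 to 0.0663).

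H2BC12 and H2BC11 went the other way. H2BC12 was at 74.5, 65.96 and 67.2 FPKM in BRQ, against 85.8, 79.1 and 79.3 FPKM in DMSO (log2 fold change -0.23 ± 0.05, limma adjusted p = 0.00348). Of its 50-base windows, 74.1% also occur in transcripts of other genes, and its span overlaps H4C9, so the split of reads is uncertain. H2BC11 had 37, 43 and 25 fragments in BRQ, against 57, 71 and 57 fragments in DMSO, with a log2 fold change of -0.67 ± 0.13 (limma adjusted p = 0.00108). The groups of both genes were apart. In the H2B family as a whole, H2BC12 held 47.1 ± 2.23% of the summed level in BRQ and 59.4 ± 0.780% in DMSO, while the family sum was 147 ± 3.35 and 137 ± 6.88 FPKM and overlapped.

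H1-2, the clustered linker histone gene with the highest level, rose. It was at 29.9, 30.2 and 31.5 FPKM in BRQ, against 24.2, 20.7 and 19.9 FPKM in DMSO (log2 fold change 0.49 ± 0.07, limma adjusted p = 1.07e-04). The 4 other clustered H1 genes in the table gave 4 to 9 fragments each over all 6 libraries. Of the core H3 genes, H3C6 rose, with 238, 260 and 286 fragments in BRQ against 176, 141 and 129 in DMSO (log2 fold change 0.51 ± 0.10, limma adjusted p = 8.44e-04). H3C10 passed with 56, 45 and 27 fragments in BRQ against 27, 24 and 21 in DMSO, where the lowest BRQ library equals the highest DMSO library in fragments. Its log2 fold change was 0.47 ± 0.16 (limma adjusted p = 0.0237), and the call was lost in 7 of 16 alternatives; it was lost without BRQ library 1 (0.30, adjusted p = 0.0950), BRQ library 2 (0.43, adjusted p = 0.0653) or DMSO library 3 (0.41, adjusted p = 0.0697). With BRQ libraries 1 and 2 both left out the log2 fold change was 0.05 (adjusted p = 0.765, the highest of its alternatives, with 6.04e-04 the lowest).

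In limma, 0 of the 3 tested H4 genes passed, also at an unadjusted p of 0.05 and with voom. Of the 5 tested clustered H2A genes, 1 passed. Over all genes tested 62.1% passed, and 3 or 5 genes are too few to set against that share. H4C12 had 54, 51 and 63 fragments in BRQ and 33, 65 and 29 fragments in DMSO, and 100% of its 50-base windows are shared with other genes. Without DMSO library 2 it passed as higher (0.60, adjusted p = 7.23e-04; the highest of its alternatives was 0.805). H4C8 passed as lower without that library (-0.39, adjusted p = 0.0333, in a range of 0.0213 to 0.509), and H4C5 as higher without DMSO library 3 (0.62, adjusted p = 0.0231, in a range of 0.0231 to 0.989). H3C13, an H3 gene, showed how far single libraries could stand apart at this depth, with 3, 22 and 18 fragments in BRQ and 68, 10 and 5 fragments in DMSO. H2AC6, a clustered H2A gene, was at 23.04, 28.03 and 20.2 FPKM in BRQ and 24.5, 23.97 and 25.7 FPKM in DMSO, a log2 fold change of -0.07 with a 95% interval of -0.27 to 0.14 (limma adjusted p = 0.550). It passed as lower without BRQ library 2 (-0.19, adjusted p = 0.0341), without BRQ libraries 1 and 2 (-0.28, adjusted p = 0.00857) and with the span trend removed (-0.30, adjusted p = 0.0212), while the highest adjusted p was 0.766. Between 80.4% and 100% of the 50-base windows of H3C13, H2AC17 and H4C12 were shared with other genes, so their values are uncertain.

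H2AW and H2BU1, a pair that starts back to back on chromosome 1, moved in opposite directions. H2AW encodes an H2A and H2BU1 an H2B (H2AC25 and H2BC26 in RefSeq), and both belong to a small cluster outside the main ones. In RefSeq (GRCh38.p14), H2AW lies from 228457364 to 228457873 and H2BU1 from 228458103 to 228458558, with 230 bases between their starts. H2AW fell to 14.1, 13.98 and 12.4 FPKM in BRQ, against 25.02, 22.98 and 21.9 FPKM in DMSO (log2 fold change -0.74 ± 0.07, limma adjusted p = 4.55e-06). H2BU1 rose to 2.78, 3.25 and 5.03 FPKM in BRQ, against 1.28, 1.23 and 1.80 FPKM in DMSO (log2 fold change 0.92 ± 0.16, limma adjusted p = 4.33e-04). The groups were apart for both genes, and both calls held in every alternative run, 17 for H2AW and 16 for H2BU1. Per 100 fragments of H2AW there were 17.6, 20.8 and 36.2 fragments of H2BU1 in BRQ, against 4.57, 4.80 and 7.36 fragments in DMSO. This ratio does not depend on the scaling of a library. Its exact two-sided permutation p was 0.1, the smallest that 3 against 3 allows. That outcome was fixed once both genes were apart in opposite directions, so it adds no separate support. The 300-base promoter windows of the pair share 271 bases, so one is shown (chr1:228457853-228458152, plus strand, RefSeq GRCh38.p14), with CCAAT boxes on either strand in capitals.
H2BU1 promoter: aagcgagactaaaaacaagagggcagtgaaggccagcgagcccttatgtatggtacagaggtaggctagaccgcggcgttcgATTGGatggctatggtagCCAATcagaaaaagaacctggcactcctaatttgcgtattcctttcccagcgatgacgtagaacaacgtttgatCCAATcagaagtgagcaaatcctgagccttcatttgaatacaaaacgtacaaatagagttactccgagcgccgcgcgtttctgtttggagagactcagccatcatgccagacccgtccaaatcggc
It held 3 CCAAT boxes, and neither TATAAA nor the octamer ATGCAAAT, an element known from H2B promoters.

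A further 3 pairs of tested H2B and H2A genes start within 248 bases of each other. The ratio of H2BC4 to H2AC6 did not overlap between groups: per 100 fragments of H2AC6 there were 239, 188 and 257 fragments of H2BC4 in BRQ, against 122, 114 and 109 in DMSO (exact two-sided permutation p = 0.1). The ratios of H2BC11 to H2AC11 and of H2BC8 to H2AC8 overlapped between groups (exact two-sided permutation p = 0.2 and 0.4). H2AC11 had 23, 17 and 39 fragments in BRQ and 14, 8 and 27 fragments in DMSO, and its difference did not pass (limma adjusted p = 0.166). Without DMSO library 3 it passed as higher (0.58, adjusted p = 0.0213), as did H2BC8 without DMSO library 2 (0.64, adjusted p = 0.0354); over the alternatives the adjusted p reached 0.696 for H2AC11 and 0.900 for H2BC8. Of the pairs with 1 gene under the filter, only H2BC21 and H2AC20 are described as a pair, chosen after the values were seen. They start 236 bases apart. H2BC21 rose, and the untested H2AC20 was lower in its fragments as given above. The H2BC4 window (chr6:26123877-26124176, minus strand, RefSeq GRCh38.p14) is shown beside that of the pair above because it holds the octamer. Capitals mark the octamer, CCAAT boxes and TATAAA on either strand. The 1 match to TATAAA reads as TTTATA here, so it is on the strand of H2AC6. It lies at the far end of the window from the H2BC4 start, close to the H2AC6 start at 26124172.
H2BC4 promoter: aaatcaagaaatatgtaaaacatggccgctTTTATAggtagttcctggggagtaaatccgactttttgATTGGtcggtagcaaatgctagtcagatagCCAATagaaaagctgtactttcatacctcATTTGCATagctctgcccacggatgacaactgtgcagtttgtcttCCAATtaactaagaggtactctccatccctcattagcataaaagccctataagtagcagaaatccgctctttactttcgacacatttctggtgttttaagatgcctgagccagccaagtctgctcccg

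**Figure D5:**
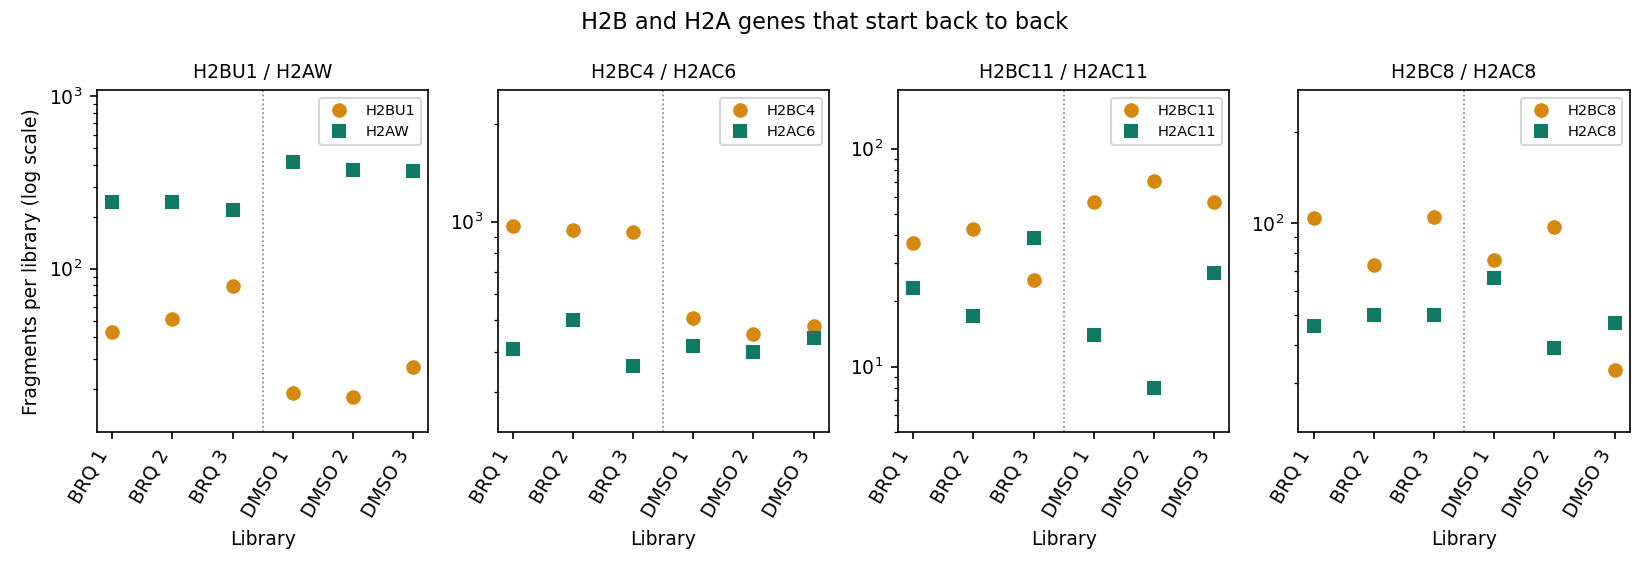
Fragments per library on a log axis for 4 pairs of H2B (circles) and H2A (squares) genes that start back to back, with the BRQ libraries left of the dotted line and the DMSO libraries right of it. H2BU1 is higher and H2AW lower in BRQ, and H2BC4 is higher in BRQ beside an H2AC6 that overlaps.

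Promoter windows were matched for 60 of the 68 genes. Of the 51 matched replication-dependent windows, 42 held a CCAAT box (82.4%), 34 held TATAAA (66.7%), 21 held ATGCAAAT (41.2%) and 14 held an E2F motif (27.5%), on either strand. The E2F motif was searched as TTTGGCGC, TTTCCCGC, TTTCGCGC or TTTGCCGC. Over all 35116 RefSeq windows of the same length the shares were 34.6%, 11.5%, 1.77% and 3.31%. Of the 9 matched variant windows, 8 held a CCAAT box (88.9%) and 5 held TATAAA (55.6%). The octamer was in 1 of these 9 (11.1%) and an E2F motif in 0. Among replication-dependent genes, the octamer was in 12 of 16 H2B windows, 8 of 13 H2A windows and 0 of 10 H4 windows. CCAAT was in 1 of those 10 H4 windows. Motifs can overlap each other in these counts. Windows of genes that start back to back share most of their bases, 255 of them for H2BC4 and H2AC6. A motif in a shared stretch was counted for both genes, so the H2A and H2B counts are not independent. A match is a description of the letters, not of a factor bound there.

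Genes that make and process histone messages changed in both directions. Of 21 listed genes, all tested, 7 rose and 4 fell, with a median log2 fold change of 0.06, as over all genes. The share that passed was 52.4%, against 62.1% of all genes tested, and without BRQ libraries 1 and 2 the counts were 6 and 3. SLBP, which binds the stem-loop, was at 57.1, 48.7 and 51.2 FPKM in BRQ, against 33.8, 29.4 and 31.1 FPKM in DMSO (log2 fold change 0.72 ± 0.07, limma adjusted p = 5.69e-06). SRRT, a partner of the cap-binding complex, was at 59.6, 57.03 and 59.2 FPKM in BRQ, against 38.3, 40.9 and 39.2 FPKM in DMSO (log2 fold change 0.56 ± 0.04, limma adjusted p = 1.82e-06). MBLAC1, a nuclease for histone messages, also rose, at a low level (log2 fold change 0.63 ± 0.16, limma adjusted p = 0.00497). Its values were 1.62, 1.62 and 1.96 FPKM in BRQ, against 1.35, 0.628 and 0.433 FPKM in DMSO. CSTF2, a cleavage factor subunit, rose too, with a log2 fold change of 0.45. CPSF3, the nuclease that cuts the message, fell to 27.2, 24.7 and 26.02 FPKM in BRQ, against 36.4, 35.97 and 33.3 FPKM in DMSO (log2 fold change -0.43 ± 0.05, limma adjusted p = 5.20e-05). NCBP1, of the cap-binding complex, TUT4, which adds uridines to RNA ends, and DDX19B, an export helicase, fell as well, by 0.32, 0.31 and 0.28 on the log2 scale. The TUT4 call was lost in 5 of 16 alternatives, among them without BRQ library 2 (adjusted p = 0.0663) and without DMSO library 1 (0.0638), and its adjusted p lay between 0.00345 and 0.371. NPAT and CASP8AP2, which act in transcription of the clusters, were at log2 fold changes of 0.10 and 0.06 and did not pass (limma adjusted p = 0.271 and 0.581).

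Among histone variants named outside the rule, MACROH2A1, which marks repressed chromatin, rose to 20.6, 20.5 and 20.5 FPKM in BRQ, against 17.5, 17.7 and 17.9 FPKM in DMSO (log2 fold change 0.20 ± 0.05, limma adjusted p = 0.00269). MACROH2A2 did not pass (adjusted p = 0.868). CENPA, the H3 variant of centromeres, was at 6.15, 7.35 and 6.56 FPKM in BRQ and 9.72, 8.15 and 5.99 FPKM in DMSO, and did not pass (limma adjusted p = 0.201). Without DMSO library 3 it passed as lower, at -0.37 (adjusted p = 0.00741, against 0.677 at the other end of its alternatives).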

How the data were processed

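The 6 Panc1 libraries (3 BRQ, 3 DMSO) were grouped by sample title. The authors deposited one table of FPKM values per gene and library. The submitters' processing notes name fastp, HTSeq and hg38; aligner, annotation, strand and poly(A) selection are not given in the sources used here. FPKM is relative to the library total, so a rise in abundant genes lowers the others. All columns of values were used.

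The test was limma 3.58.1 in R 4.3.3, applied to log2(FPKM + 1) of genes averaging 1 FPKM or more (eBayes, trend = TRUE; group the only term; two-sided), with Benjamini-Hochberg adjustment over all 10689 genes and a threshold of 0.05. The pseudocount understates changes of low genes. Fold changes are given with SE. The fit was tested on simulated data. Fragments were recovered as whole numbers in 99.7% of tested genes, with a tolerance of 0.02 of a fragment; they give the fragment values, sums and pair ratios and, after the values were seen, limma's voom weights as an added alternative. For 48 histone genes they rest on the RefSeq length; for the others, H2AJ, H2AX, H2BC4, H3C6 and H2AC8 among them, they are the smallest whole numbers that match the steps, so the true values may be a multiple, the same in every library. Fragments are not independent molecules, and counting error only is meant where they are given. RefSeq tables are of GRCh38.p14, and transcripts are of GENCODE 29, in which 67 of 68 genes matched.

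The members, lists and tests were chosen with earlier results of these data known. Named were all tested histone genes past the threshold, the 5 most abundant of each class, up to 4 processing genes in each direction and 3 variants outside the rule; H2AC14, H2AC17, H2AC20, H3C4, H3C13, H4C5, H4C8, H4C12, H3-5, H2AC11, H2BC8, NPAT and CASP8AP2 were named after their values were seen. One of the genes that the rule names is not reported here and is left out of the plots of single genes. Figures were drawn with matplotlib 3.10.9.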

Additional observations from a re-analysis of the deposited data

How the results depend on the processing

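The settings tried were a filter at 1 FPKM removed, a pseudocount of 0.1, a filter at 5 FPKM, 3 other scalings, robust eBayes, a replicate block, removal of the span trend, and leaving out each library or BRQ libraries 1 and 2 together; voom was chosen after seeing the data. Counts moved by over 1.5 times in 7 cases. With the filter at 5 FPKM, 4 replication-dependent genes rose, since 7 were tested. With the span trend removed, 5 rose and 6 fell, and 2 variants fell. With median-of-ratios, TPM or trimmed-mean scaling 2 variants fell. Among these settings and the leave-one-out fits, every other count stayed within 1.5 times.

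Same-numbered libraries correlated at 0.144, 0.00804 and 0.0584 in their deviations from the group means. Libraries with unlike numbers correlated at -0.137 to 0.105. So few values do not settle whether replicate numbers pair the libraries. With the replicate as a block, 9 replication-dependent genes rose and 3 fell, and 6799 of all genes passed; H2AC11 was added at a log2 fold change of 0.35 (limma adjusted p = 0.00684).

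Directions turned in genes that did not pass. MACROH2A2 was at -0.0069 with median-of-ratios scaling, -0.0072 with TPM and -0.0035 with the trimmed mean. With the span trend removed H2AC17 was at -0.094 and H2BC9 at -0.10. Without BRQ libraries 1 and 2, H2BC15 was at 0.10, H3-5 at 0.17 and H4C5 at -0.012. Leaving out 1 library at a time gave log2 fold changes of -0.19 to 0.039 for H2AC6, -0.12 to 0.18 for MACROH2A2, -0.20 to 0.074 for H2AC8, -0.60 to 0.0070 for H2BC15, -0.063 to 0.27 for H2BC18, -0.088 to 0.48 for H2BC9, -0.22 to 0.011 for H3-5, -0.73 to 0.29 for H3C13 and -0.075 to 0.62 for H4C5. The cause was not tested. Depth limits the low genes: 18 of the 33 untested replication-dependent genes and all 3 untested variants had fewer than 10 fragments in all 6 libraries together. Groups of 3 are too small for a test of single outlying libraries.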
